A study of Mus musculus with 2 samples.

Results

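The cytosolic ribosomal protein genes were compared in interscapular brown adipose tissue (iBAT), a fat depot of the upper back that burns fuel to make heat, between a wild-type and a Ucp1-knockout (Ucp1-KO) mouse library. Members were the genes whose symbol has the form Rps or Rpl and a number. After the number the symbol may hold a single letter a, l, x or y, with or without further digits. Rpsa, Rplp0, Rplp1 and Rplp2 were included by name. The rule matched 86 symbols. Rpl6l and Rpl32l are annotated as processed pseudogenes in GENCODE and were left out, with 666 and 2 wild-type counts and 566 and 1 Ucp1-KO counts. That left 84 of 27179 genes: 31 of the small subunit, 46 of the large subunit and 7 paralogs, duplicated copies that are Rpl3l, Rpl7l1, Rpl10l, Rpl22l1, Rpl39l, Rps4l and Rps27l. Rps4l is protein-coding in GENCODE and a transcribed pseudogene in RefSeq, and it was kept.

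A ribosome joins a small subunit, which reads the messenger, to a large subunit, which forms the peptide bonds. Each holds 1 copy of nearly every ribosomal protein around a core of ribosomal RNA, so the genes are usually expressed at high and coordinated levels. Their messengers begin with a run of pyrimidines, the 5′ terminal oligopyrimidine (TOP) element, through which mTORC1 and the protein Larp1 set their translation and stability. Brown fat makes this machinery alongside a large mitochondrial mass, whose own ribosomes use a separate set of proteins.

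Both groups were untreated C57BL/6N mice aged 20 days and described as male, and they differed by genotype, wild-type or homozygous knockout of the gene for uncoupling protein 1 (UCP1), which lets mitochondria of brown fat release energy as heat. Each group was 1 library from the pooled tissue of 3 animals, so nothing was replicated, neither a p-value nor a standard deviation can be given, and the values below compare 2 libraries. The deposited counts summed to 52950913 (wild-type) and 53216727 (Ucp1-KO). In tissue RNA, fewer cells of a type and less RNA per cell cannot be told apart.

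The libraries stood apart in several ways that bear on the members. Ucp1 itself, with 366473 wild-type counts, was not at 0 in the knockout (37853 counts, 12.7% of wild-type after normalisation). Although both pools were described as male, the Y-linked Ddx3y, Uty, Kdm5d and Eif2s3y were at 0 in wild-type, against 491 to 3446 counts in Ucp1-KO. Xist, made from an inactive X chromosome, was present in both pools, with 32380 wild-type counts and 62.6% of that level in Ucp1-KO after normalisation. The counts of the wild-type pool thus do not bear out its description as male. Each of 18 skeletal muscle markers was lower in Ucp1-KO by at least 2-fold, against 9.55% of all genes. RNA of the mitochondrial genome took 22.4% of all wild-type counts against 36.7% for Ucp1-KO. The 10 brown adipocyte markers were all present, with a summed 732865 and 753650 counts. How far sex, muscle or mitochondrial RNA took part in the results on the members was not tested. With 1 library per genotype, their part cannot be told apart from that of genotype.

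Differences are given as the log2 ratio of Ucp1-KO over wild-type, on counts divided by median-of-ratios size factors (normalised counts) with 0.5 added, for genes whose normalised counts average at least 10. That rule kept 82 of the 84 members and 15212 genes in all. Brackets hold an exact binomial 95% interval on read pairs, which covers counting error only.

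Sequence at the start of the genes was looked at first, because the TOP element is what the family is known to share and the choice of members did not use it. A run was scored as a C followed by at least 7 further C or T on the strand of the gene, anywhere within 50 bases of a RefSeq start site (GRCm38.p6), and on that strand only. The promoter table held 63 of the 84 members, and 52 of them (82.5%) carried such a run, against 3520 of 10989 other protein-coding genes examined (32.0%). The windows below are 30 bases of the RefSeq strand of the gene, with the longest pyrimidine run within the searched bases in capitals. In Rpl41, Rpl39 and Rpl10 that run reaches the edge of the searched bases and may extend beyond it. They show standard genes from among the highest log2 ratios (Rps7, Rpl14, Rplp0) and the lowest (Rps21, Rpl41), and all 6 paralogs in the table, each beside its parent gene where the table holds it.
Rps7 (chr12:28635910-28635939, minus strand): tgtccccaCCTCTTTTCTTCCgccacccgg
Rpl14 (chr9:120571501-120571530, plus strand): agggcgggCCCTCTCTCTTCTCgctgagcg
Rplp0 (chr5:115559467-115559496, plus strand): ggaccgcctggTTCTCCTataaaaggcaca
Rps21 (chr2:180257399-180257428, plus strand): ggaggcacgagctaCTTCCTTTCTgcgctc
Rpl41 (chr10:128549119-128549148, minus strand): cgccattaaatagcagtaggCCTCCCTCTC
Rpl22 (chr4:152325679-152325708, plus strand): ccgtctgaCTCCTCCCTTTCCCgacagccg
Rpl22l1 (chr3:28805499-28805528, plus strand): cgcaagcccgTTCTCTTCCCacggctgcag
Rps27 (chr3:90213631-90213660, minus strand): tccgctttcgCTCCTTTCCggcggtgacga
Rps27l (chr9:66946054-66946083, plus strand): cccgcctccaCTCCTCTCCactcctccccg
Rpl39 (chrX:37085173-37085202, minus strand): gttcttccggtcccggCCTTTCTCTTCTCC
Rpl39l (chr16:10170192-10170221, plus strand): acacccactgCCTCTCCCTagctcccaggc
Rpl10 (chrX:74270836-74270865, plus strand): cgtgagcaggcgtgggagcgTCTCTTTTCC
Rpl10l (chr12:66284428-66284457, minus strand): cagtctctatgaTTCCCgcaaggcttgatg
Rpl3l (chr17:24727846-24727875, plus strand): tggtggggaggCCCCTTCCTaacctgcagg
Rpl7l1 (chr17:46782670-46782699, minus strand): gtcgaggcgggCCTCTCTaccccgcccggt

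Within the searched bases the longest run was 13 bases in Rps7, 14 in Rpl14 and 10 in Rps21 and Rpl41. Rplp0 had only 7 and did not meet the rule. Of the 6 paralogs 4 met it, and Rpl10l and Rpl7l1, with longest runs of 5 and 7 bases, did not. Rps21, the lowest of the standard members, therefore carried a run as Rps7, the highest, did. The median log2 ratio was 0.26 for the 47 standard members with a run and 0.30 for the 9 without, so the ratio did not follow the presence of these letters. Among other protein-coding genes the medians were -0.02 with a run and 0.01 without. Annotated start sites can miss the true first base, and a match to these letters does not show a TOP element.

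As a family the ribosomal protein genes lay in a narrow band, slightly higher in the Ucp1-KO library with median-of-ratios scaling and slightly lower with total counts. The median log2 ratio of the 82 members examined was 0.24, with the middle 50% between 0.09 and 0.34, against a median of -0.0016 over all 15212 genes and 0.06 over the 6395 genes with a mean of at least 1000. Of the members, 71 were above 0 and 11 below it. The counting interval lay wholly above 0 for 64 members (78.0%, against 31.5% of all genes) and wholly below 0 for 5 (6.10%, against 30.5%). Large differences were rare. Only Rps7 was at least 1.5-fold higher, 1 of 82 against 15.4% of all genes, and Rpl3l and Rpl39l were at least 1.5-fold lower, 2 of 82 against 17.9%. Both of these were also at least 2-fold lower, against 9.55% of all genes, though Rpl39l, at -1.001, was no longer so with size factors computed without the ribosomal protein genes or with a pseudocount of 5. No member was at least 2-fold higher, against 7.42%. The spread of the 76 standard members examined, between the first and last quartile, was 0.21, while that of all genes with a mean of at least 1000 was 0.51.

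**Figure D1:**
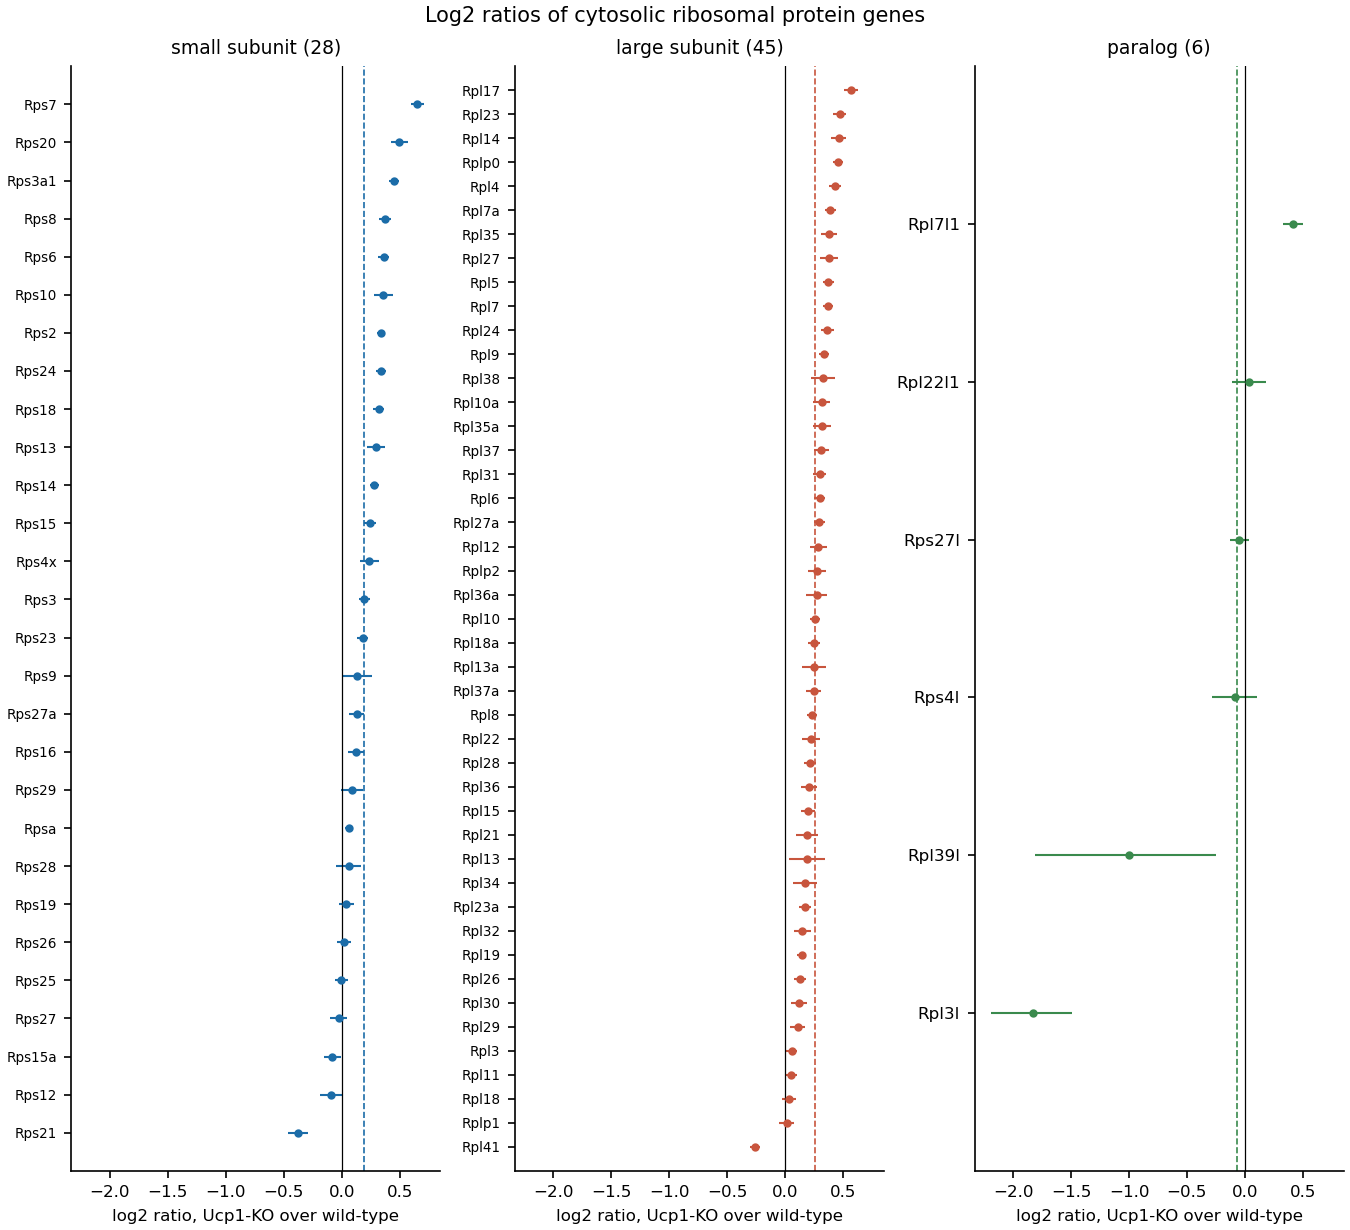
Log2 ratio (Ucp1-KO over wild-type, x axis) of the members whose values are reported here, in panels for 28 small subunit genes, 45 large subunit genes and 6 paralogs, with 95% counting intervals as bars and the median over all genes examined of that class as a dashed line. Most of the subunit genes sit between 0 and 0.5, with Rps21 and Rpl41 below, and Rpl3l and Rpl39l lie far below the other paralogs.

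The direction depended on how the libraries were scaled. Scaling to total counts, in which the mitochondrial RNA has its full weight, shifted every log2 ratio by -0.31. Under it the median of the members was -0.066 and that of all genes -0.31, and 50 of the 76 standard members were lower rather than higher. With total-count scaling 16 members had an interval wholly above 0 and 43 wholly below. The shares of all genes were not counted under that scaling, which put the median of all genes at -0.31. These 2 counts are therefore not read as a result about the members. The same scalings can be read as shares of counts and add no separate evidence. The members held 1.51% of all counts in the wild-type library (1.51% to 1.52%) against 1.44% in the Ucp1-KO library (1.44% to 1.45%), a sum of 801863 and 767398 counts. Of the counts outside the mitochondrial genome they held 1.95% (1.95% to 1.96%) and 2.28% (2.27% to 2.28%). The family was thus a smaller part of all RNA counted in the Ucp1-KO library and a larger part of the RNA from nuclear genes. Its median stood above that of all genes in both scalings, which is a single result, since a change of scaling moves every gene alike.

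The medians of both subunits lay above 0, and the small subunit genes were the more spread. The 31 small subunit genes had a median of 0.19 and 25 were above 0, and the 45 large subunit genes examined had a median of 0.26 and 44 were above 0. The counting interval was wholly above 0 for 21 of 31 small and 42 of 45 large subunit genes, against 31.5% of all genes. A test of the difference between the subunits was not made. In the large subunit the middle 50% spanned 0.16, against 0.29 for the small subunit. Small subunit genes made up 41.9% of the counts of standard members in the wild-type library (41.8% to 42.1%) against 41.7% in the Ucp1-KO library (41.6% to 41.9%), and these intervals overlap. The order of levels was nearly the same in both libraries, with a Spearman rho of 0.98 over the 76 standard members, a description across genes that share the same 2 libraries.

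**Figure D2:**
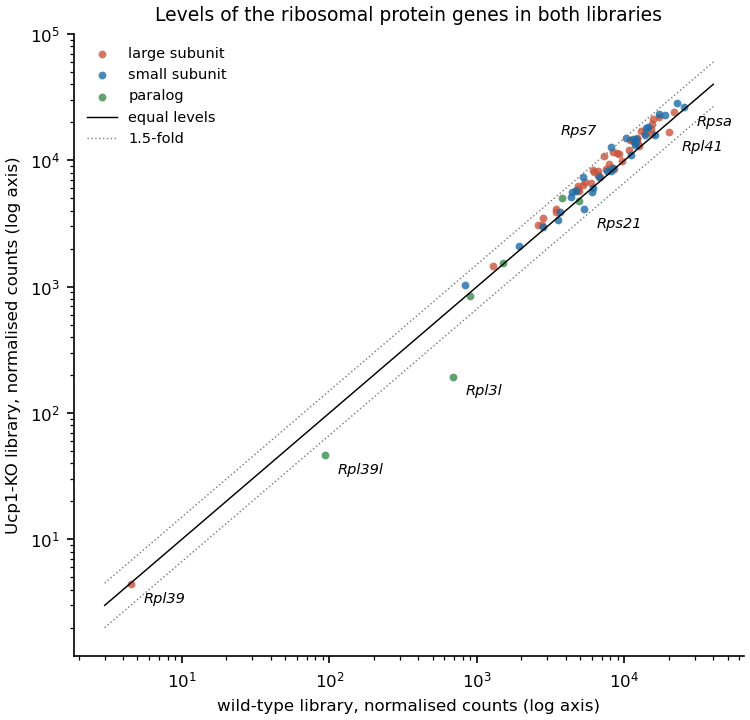
Normalised counts of the members in the wild-type (x axis) and Ucp1-KO (y axis) library, both on log axes, with the line of equal levels and dotted lines at 1.5-fold. The standard members other than Rpl39 lie close to the line of equal levels, except Rps7, which lies just above the upper dotted line. Rpl3l and Rpl39l fall below the lower dotted line and Rpl39 lies near the origin.

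The members reached very different levels, all read here per kilobase of coding sequence because the counted length of each gene is not known. Rpl41, whose protein of 25 residues is the smallest of the ribosome, was highest at 266860 normalised counts per coding kilobase in wild-type and 223170 in Ucp1-KO, although its messenger is mostly untranslated and its level per coding base is therefore overstated. Rps14, a protein of the small subunit, followed with 41677 and 50576. Rps24 had 37164 and 47020, and Rpl19 had 37114 and 40938. Near the other end of the standard members examined was Rpl13, of the large subunit, with 2035 and 2315. Of these 5 genes, Rpl41 was the one with a lower level in Ucp1-KO.

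Genes of both subunits were among the highest log2 ratios. Rps7, a small subunit protein needed to process the small ribosomal RNA and able to bind the p53 regulator Mdm2, went from 8938 wild-type counts to 11399. After normalisation that is 8056 and 12646, a log2 ratio of 0.65 (0.59 to 0.71). In GRCm39 the gene spans 28677933 to 28686292 of chromosome 12, minus strand. Rpl17, which lines part of the peptide tunnel, had 8080 and 9752 counts and a log2 ratio of 0.57 (0.51 to 0.63). Rps20 had 5796 and 6651 counts and a log2 ratio of 0.50 (0.43 to 0.57). Rpl23, another binder of Mdm2, had 9290 and 10453 counts and a log2 ratio of 0.47 (0.41 to 0.53), and Rpl14 had 6763 and 7559 counts and a log2 ratio of 0.46 (0.39 to 0.53). These 5 were higher in the Ucp1-KO library under total-count scaling too, with log2 ratios of 0.15 to 0.34, and Rps7 was then no longer past 1.5-fold.

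The lowest standard members were fewer and stood further from the rest. Rps21, a small protein of the small subunit on chromosome 2 (179899114 to 179900249, plus strand), went from 5924 counts to 3701, its log2 ratio being -0.38 (-0.46 to -0.29). Rpl41, on chromosome 10 (128383979 to 128387628, minus strand), had 22205 and 15087 counts and a log2 ratio of -0.26 (-0.30 to -0.22). Minus the median of the members, these log2 ratios were -0.62 and -0.50. With total-count scaling Rps21 was at -0.69, past 1.5-fold, and Rpl41 at -0.56. The next, Rps12, had 3953 and 3016 counts and a log2 ratio of -0.09 (-0.19 to 0.01), which includes 0. Rps15a, named here after its value was seen, had 6640 and 5101 counts and -0.08 (-0.16 to -0.01). Beyond these, Rps27 (-0.03) and Rps25 (-0.0022), named after their values were seen, had intervals that include 0.

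Rps21 and Rpl41 encode very short proteins of 83 and 25 residues. Over the 76 standard members the log2 ratio and the length of the protein had a Spearman rho of 0.34, and the 17 members under 120 residues had a median of 0.17 against 0.26 for the 59 longer ones. Over all 6321 coding genes with a mean of at least 1000 the same rho was 0.0015. The medians of other coding genes at that level were -0.01 under 120 residues and 0.06 above. These are descriptions across genes of the same 2 libraries. The GC content of the coding sequence had a rho of -0.22 with the ratio among the members, close to -0.17 among all coding genes at that level, and mean level had a rho of 0.18.

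**Figure D3:**
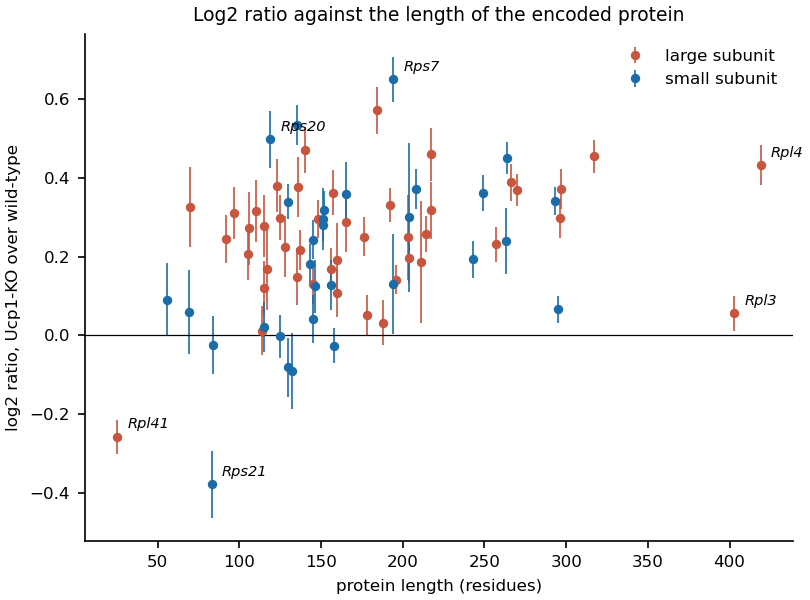
Log2 ratio of the 76 standard members examined (y axis, with 95% counting intervals) against the length of the encoded protein in residues (x axis). Rpl41 and Rps21, at 25 and 83 residues, are the lowest points, and most proteins over 200 residues lie between 0.05 and 0.46.

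Proteins with a known second role were looked at by name. Rps6, which S6 kinases phosphorylate downstream of mTORC1, had 15435 and 16113 counts and a log2 ratio of 0.36 (0.32 to 0.41). Rpsa, also known as the laminin receptor, had the most counts of any member in the wild-type library, 28000 against 23808 in Ucp1-KO, and its log2 ratio of 0.07 (0.03 to 0.10) was well below the median of the family. Rps27a, made as a fusion with ubiquitin, had 8408 and 7466 counts and a log2 ratio of 0.13 (0.06 to 0.19). Rpl13a, often used as a reference gene in PCR, had 2876 and 2776 counts and a log2 ratio of 0.25 (0.14 to 0.36). The members did not all share 1 ratio, since the intervals of Rps6 and Rpsa are far apart.

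Fau, Rack1 and Rpl36al make ribosomal proteins but fall outside the symbol rule. Fau, which carries a ubiquitin-like domain, had 6071 and 5581 counts and a log2 ratio of 0.18 (0.10 to 0.25). Rack1, a signalling scaffold on the small subunit, had 6745 and 6916 counts and a log2 ratio of 0.34 (0.27 to 0.40). Rpl36al had 4214 and 3019 counts and a log2 ratio of -0.18 (-0.28 to -0.09). Rack1 and Fau were thus within the middle 50% of the members and Rpl36al was below it. With total-count scaling Fau, Rack1 and Rpl36al were at -0.13, 0.03 and -0.49.

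The ribosomal stalk, where translation factors are recruited, is made of Rplp0, which binds the ribosomal RNA, and pairs of Rplp1 and Rplp2. Rplp0 had 17264 and 19225 counts and a log2 ratio of 0.45 (0.41 to 0.50). Rplp1 had 9439 and 7730 counts and a log2 ratio of 0.01 (-0.05 to 0.07). Rplp2 had 5392 and 5311 counts and a log2 ratio of 0.28 (0.20 to 0.36). The 3 intervals do not overlap, so partners of 1 structure differed from each other by more than counting error. Rpl5 and Rpl11, which form a particle with the 5S ribosomal RNA and hold Mdm2 when ribosome assembly fails, differed in the same way. Rpl5 had 12495 and 13139 counts and a log2 ratio of 0.37 (0.32 to 0.42), and Rpl11 had 13979 and 11772 counts and a log2 ratio of 0.05 (0.0015 to 0.10). With total-count scaling the median of the stalk went from 0.28 to -0.03 and that of Rpl5 and Rpl11 from 0.21 to -0.09.

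A list of 9 genes whose loss of 1 copy causes Diamond-Blackfan anaemia, not all such genes, had a median of 0.34. All 9 were above 0, beside 71 of the 82 members examined and 7592 of all 15212 genes. Rps7 led them at 0.65. Rpl5 (0.37), Rps10 (0.36), Rps24 (0.34) and Rpl35a (0.32) were near the middle of the list. Rpl11 (0.05), Rps19 (0.04) and Rps26 (0.02) were the lowest, and the intervals of Rps19 and Rps26 include 0. With total-count scaling the median of the list was 0.03.

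Members on the X chromosome were examined apart, because the Y-linked genes differed between the pools. Rps4x had 4817 and 4619 counts and a log2 ratio of 0.24 (0.16 to 0.32). Rpl10 had 15259 and 14811 counts and a log2 ratio of 0.26 (0.21 to 0.30). Rpl36a had 3808 and 3735 counts and a log2 ratio of 0.27 (0.18 to 0.36). All 3 were close to the median of the 73 autosomal standard members, 0.24, and their own median of 0.26 became -0.05 with total-count scaling. The fourth, Rpl39, had 5 and 4 counts, which is under the limit of 3 read pairs, or 6 counts, that a count of 0 allows, and no ratio was read from it. Rpl39 lines the peptide tunnel and is a standard part of the ribosome, so a listed value near 0 is not read as absence.

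The lowest ratios of the family were those of 2 paralogs. Rpl3l, a version of Rpl3 made in skeletal and heart muscle, was counted 768 times in the wild-type library but 175 times in Ucp1-KO, giving a log2 ratio of -1.83 (-2.19 to -1.50), the lowest of all members. It lies on chromosome 17 from 24946751 to 24955119, on the plus strand. Its protein of 407 residues is identical to Rpl3 at 310 positions, 76.0% of the alignment. Rpl3l took 4.29% of the counts of the pair Rpl3 and Rpl3l in the wild-type library (3.88% to 4.73%) but 1.20% in that of Ucp1-KO (0.96% to 1.47%). Rpl3 itself had 17120 and 14454 counts and a log2 ratio of 0.06 (0.01 to 0.10). The 18 muscle markers moved with Rpl3l, from 345043 to 41902 counts in sum with a median log2 ratio of -2.74, and Pvalb (-3.92), Mylpf (-3.63) and Acta1 (-3.39) were the lowest of them. Their part in the value of Rpl3l was not tested.

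Rpl39l, the form of Rpl39 known from male germ cells, had 104 and 42 counts and a log2 ratio of -1.001 (-1.81 to -0.25), the wide interval being set by the low counts. It took 95.4% of the counts of Rpl39 and Rpl39l in wild-type (86.03% to 99.2%) against 91.3% in Ucp1-KO (72.0% to 98.9%), which reflects the near absence of counts for Rpl39. Rpl10l, which stands in for Rpl10 in meiotic male germ cells, had 0 counts in both libraries, which allows up to 6 counts each. Rpl10l matches Rpl10 at 98.6% of residues. These 2 libraries therefore gave no measure of Rpl39 or Rpl10l.

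The other paralogs differed less. Rpl7l1, a relative of Rpl7 with a role in ribosome assembly and 40.7% identity, had 4207 and 4565 counts and a log2 ratio of 0.42 (0.33 to 0.50). Its share of the pair was 18.2% (17.5% to 18.9%) in wild-type, overlapping that in Ucp1-KO, 18.7% (18.03% to 19.4%). Rps27l, a p53 target that matches Rps27 at 96.4% of residues, had 5434 and 4273 counts and a log2 ratio of -0.05 (-0.13 to 0.04). Its share of the pair, 44.5% in wild-type (43.3% to 45.8%) against 44.2% in Ucp1-KO (42.8% to 45.6%), was the same within counting error. Rps4l, at 93.2% identity to Rps4x, had 997 and 761 counts and a log2 ratio of -0.09 (-0.29 to 0.11). Rps4l went from 17.1% of its pair (15.8% to 18.6%) to 14.1% (12.8% to 15.5%), and these intervals do not overlap. Rpl22l1, at 70.3% identity to Rpl22, had 1679 and 1395 counts and a log2 ratio of 0.03 (-0.11 to 0.18). The intervals of its share of the pair, 23.5% (22.1% to 24.9%) and 21.1% (19.8% to 22.6%), overlap. The share of Rpl36al in its pair with Rpl36a was 52.5% in wild-type (51.0% to 54.1%) against 44.7% in Ucp1-KO (43.0% to 46.4%), a difference that no scaling factor can change. Rps27rt, an intronless gene close to Rps27, had 444 and 341 counts and took 6.16% (5.397% to 6.99%) and 5.94% (5.10% to 6.87%) of its pair. In all, 8 of the 12 paralogs and duplicated genes listed were examined, with a median of -0.09. Of these, 2 (Rpl3l and Rpl39l) were at least 2-fold lower, against 9.55% of all genes. None was at least 1.5-fold higher, against 15.4% of all genes, and 8 genes are too few to read that as a difference.

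**Figure D4:**
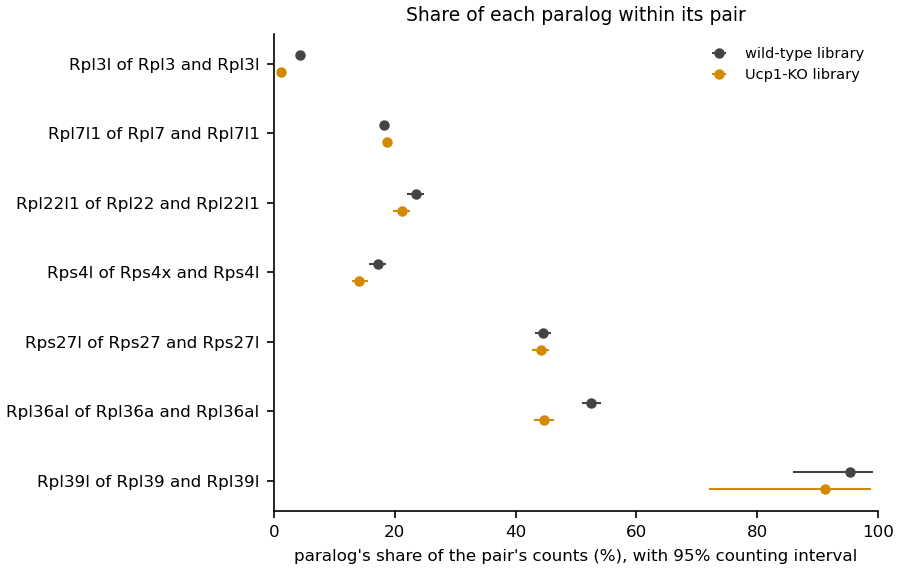
Share of the counts of each parent and paralog pair that fell on the paralog (x axis, percent) in the wild-type and the Ucp1-KO library, with exact 95% intervals for counting error. The shares of Rpl3l, Rps4l and Rpl36al are lower in Ucp1-KO with intervals that do not overlap, while those of Rpl7l1, Rpl22l1, Rps27l and Rpl39l overlap.

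Near-identical copies limit how firmly the counts of a member can be read. A search of GRCm39 with each coding sequence found intronless copies, at least 95% identical over at least 80% of the length, for 74 of the 77 standard members, 603 copies in all. Rpl21 had 56, Rpl7a 31, Rps2 29 and Rpl29 28, while Rps3 and Rpl8 were among those with 0. The settings for reads that match several places are not given in the sources used here. Members with 10 or more copies had a median log2 ratio of 0.20 (19 genes), members with 1 to 9 copies 0.25 (54 genes) and the 3 without copies 0.23. The rho of the ratio with the number of copies was -0.07. Pseudogene rows named after a member held 1558 and 1759 counts, 0.194% and 0.229% of the counts of members and pseudogenes together. Rpl17-ps10 held the most of them, 722 and 997, with a log2 ratio of 0.76 (0.57 to 0.96). Rpl39, with 9 copies, had 5 and 4 counts, and Rpl21, with 56, had 3804 and 3527. Whether copies took part in the low counts of Rpl39 was not tested.

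Genes that make or regulate ribosomes were compared with the members by their lists. Ribosome biogenesis factors were higher as a group. Of 42 examined, 39 were above 0, 25 were at least 1.5-fold higher and none was at least 1.5-fold lower, against 15.4% and 17.9% of all genes, with a median of 0.65, or 0.34 with total-count scaling. Gnl3, a nucleolar GTPase, had 1162 and 3252 counts and a log2 ratio of 1.78 (1.65 to 1.92). Nop58, a core protein of the box C/D particles that guide ribosomal RNA methylation, had 802 and 2062 counts and 1.66 (1.49 to 1.83). Rrp12 had 681 and 1406 counts and 1.34 (1.16 to 1.54). These factors thus stood 0.41 above the median of the ribosomal proteins they help assemble.

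Transcripts that share the TOP element but encode no ribosomal protein formed 2 lists. Translation factors and related TOP messengers had a median of 0.28, beside 0.24 for the members, with 17 of 19 above 0. The 3 of 19 at least 1.5-fold higher are close to the 15.4% of all genes. Hnrnpa1 had a log2 ratio of 0.87 (0.79 to 0.94), Npm1, a nucleolar chaperone, of 0.74 (0.67 to 0.81), and Eif3e, a subunit of initiation factor 3, of 0.64 (0.55 to 0.73). Transcripts that host small nucleolar RNAs had a median of 0.75, with 7 of 7 examined above 0 and 6 at least 1.5-fold higher, against 15.4% of all genes. Snhg12 had 304 and 565 counts and a log2 ratio of 1.19 (0.90 to 1.49), Snhg8 of 0.95 (0.69 to 1.20) and Snhg1 of 0.83 (0.65 to 1.02).

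The 15 genes of RNA polymerase I, which transcribes the ribosomal RNA, had a median of 0.20, with 11 above 0 and 6 at least 1.5-fold higher, against 15.4% of all genes. Taf1d (1.26, 1.11 to 1.41), Rrn3 (0.85, 0.74 to 0.95) and Polr1a (0.77, 0.62 to 0.93) were the furthest from 0. Of the 15 intervals, 7 lay wholly above 0 and 2 wholly below it, against 31.5% and 30.5% of all genes, and 6 included 0. The row for the ribosomal RNA precursor, Rn45s, was lower in Ucp1-KO with 344420 and 221301 counts, a log2 ratio of -0.34 (-0.35 to -0.33). These were libraries enriched for poly-adenylated RNA, in which ribosomal RNA is a remnant, so that value is not a measure of ribosomes. Mitochondrial ribosomal RNA moved the other way, from 1.01% to 6.01% of all counts, with log2 ratios of 3.35 for mt-Rnr1 and 2.60 for mt-Rnr2. The same limit applies to these values, which are not a measure of mitochondrial ribosomes.

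Regulators of mTORC1 and of TOP messengers had no common direction. Of 24, 14 were above 0 and 10 below, with a median of 0.15. Myc, which drives ribosome production, had 244 and 703 counts and a log2 ratio of 1.82 (1.53 to 2.14). Pdcd4, an inhibitor of translation initiation, had 3315 and 898 counts and a log2 ratio of -1.58 (-1.74 to -1.43). Mycn had 30 and 9 counts and -1.39 (-3.36 to 0.15), which includes 0. Genes of ribosome quality control and hibernation had a median of 0.12, with 8 of 13 above 0. Ankzf1 (-1.31), G3bp2 (0.74) and Map3k20 (-0.69) were the furthest from 0 in that list.

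With total-count scaling the medians were 0.44 for the small nucleolar RNA hosts, -0.03 for the TOP messengers, -0.10 for RNA polymerase I, -0.16 for the mTORC1 regulators and -0.18 for quality control, so the direction of the last 4 lists depended on the scaling.

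The mitochondrial ribosomal proteins were compared because they are proteins of the same kind in another compartment. The 77 examined of 78 had a median of 0.0030, with 40 above 0 and 37 below. None was at least 1.5-fold higher, against 15.4% of all genes. Mrps15 (-0.64) and Mrpl40 (-0.62) were at least 1.5-fold lower, against 17.9% of all genes, and Mrpl14 (0.55) was highest. In sum they held 0.443% of all counts in wild-type (0.441% to 0.446%) against 0.359% in Ucp1-KO (0.357% to 0.362%). Those totals include RNA of the mitochondrial genome, 22.4% of wild-type and 36.7% of Ucp1-KO counts. With median-of-ratios scaling the log2 ratio of the summed counts of those examined was 0.0035 (-0.0088 to 0.016), which includes 0. The cytosolic members therefore sat 0.24 above the mitochondrial ones on the log2 scale, a distance that the choice of scaling does not change.

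**Figure D5:**
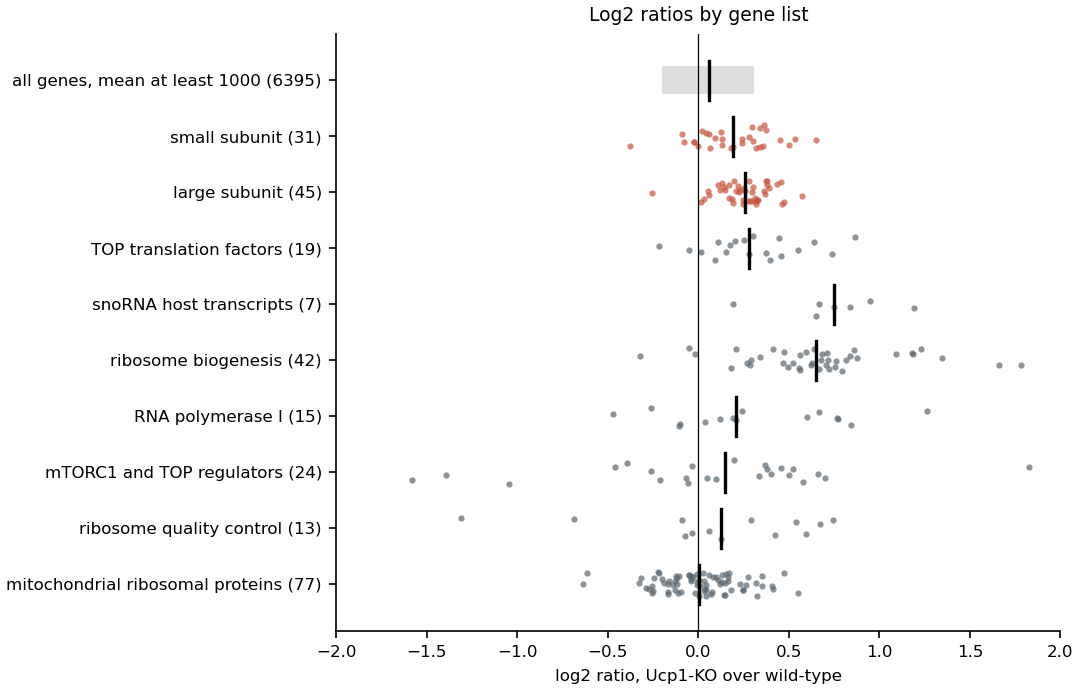
Log2 ratios (Ucp1-KO over wild-type, x axis) of the small and large subunit genes and of the other lists, 1 point a gene, with the median as a black line and the number examined in brackets. The top row gives the middle 50% of all genes with a mean of at least 1000. Ribosome biogenesis and small nucleolar RNA host transcripts lie furthest right, and mitochondrial ribosomal proteins centre on 0. Total-count scaling would move every point by -0.31.

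Markers of other cells in the tissue are given as values beside the family. The 10 brown adipocyte markers had a median of 0.37, with 8 above 0 and Prdm16 (1.39), Adipoq (0.84) and Lpl (0.59) the furthest from it. The intervals of 2 of them, Plin5 (-0.23) and Cidec (-0.05), named after their values were seen, were wholly below 0. Endothelial markers were lower in 9 of 10, with a median of -0.81, a sum of 133699 and 66596 counts, and Emcn (-1.39), Egfl7 (-0.92) and Flt1 (-0.91) the lowest. Macrophage markers were mostly but not all higher. Of 10, 7 were above 0, with a sum of 6272 and 6773 counts and a median of 0.53, or 0.25 with a minimum mean of 50. At least 1.5-fold higher were 5 and lower 0, against 15.4% and 17.9% of all genes. The interval lay wholly above 0 for 6 and wholly below for 1, against 31.5% and 30.5%. Itgam (2.04), Trem2 (1.92) and Fcgr1 (1.76) were the highest, Trem2 with 10 and 32 counts and Fcgr1 with 28 and 78. Cd163 (-0.47), Adgre1 (-0.21) and Csf1r (-0.0067), named after their values were seen, were below 0, and the interval of Cd163 was wholly so. With total-count scaling the medians of the brown adipocyte, endothelial and macrophage markers were 0.07, -1.11 and 0.22. Whether a different mix of cells took part in the ratio of the ribosomal proteins was not tested.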

How the data were processed

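RNA from iBAT of wild-type and Ucp1-KO mice was measured in 1 library per genotype, prepared by poly-A enrichment and, per the labels, strand-specific. The authors deposited raw featureCounts gene counts, and the submitters' processing notes name Trim Galore, HISAT2 and the genome build mm39, with no version for either tool. The annotation and the settings for strand and multi-mapping reads are not given in the sources used here. Size factors were computed with DESeq2 1.42.0 (1.11 for wild-type, 0.901 for Ucp1-KO) and, as an alternative, TMM factors with edgeR 4.0.16 in R 4.3.3. No statistical test can be made from 1 library per genotype, so genes are described by their log2 ratio, with a pseudocount of 0.5, a mean normalised count of at least 10 and size rules of 1.5-fold and 2-fold. Intervals are exact Clopper-Pearson 95% intervals on counts divided by 2, since 70.7% and 73.4% of counts from 1 to 10 were even. They cover counting error only, as reads carry no molecular identifiers.

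Gene models and lengths came from GENCODE mouse release 39 (GRCm39), joined by symbol for 97.1% of the genes examined and all 84 members, copies were searched with BLAST 2.17.0, and start sites came from RefSeq (GRCm38.p6). Alternatives were the scalings, the filter, the pseudocount, pseudogene counts, paralogs and the unit of the interval, and the computation was tested on simulated data. Members named were the 6 highest and 6 lowest ratios, the 5 highest and 5 lowest levels per coding kilobase, those under the filter, every gene of the small lists, 4 genes of known second roles, the largest pseudogene row, up to 3 genes of each other list, and parent genes of paralogs. The members and lists were chosen with earlier results of these data known. The values of some genes that this rule names are not reported here.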

Additional observations from a re-analysis of the deposited data

How the results depend on the processing

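No paired analysis was possible because the comparison sets a lone wild-type library against a lone Ucp1-KO library, and leaving out a library was likewise not possible. Scaling to total counts changed the most, by its constant shift of -0.31. Under it the median log2 ratio was -0.066 for the members, -0.11 for the small subunit and -0.050 for the large subunit. The summed member counts gave -0.071 and no member (0) was at least 1.5-fold higher. An interval wholly above 0 was seen for 16 members and one wholly below for 43, without the shares of all genes, which were not counted. The summed counts, whose counting interval is narrow (0.23 to 0.24), moved to 0.22 with TMM factors and to 0.22 with total counts that leave out mitochondrially encoded genes. Rpl39l lies at the 2-fold line, so the number of members at least 2-fold lower was 1 with size factors computed without the ribosomal protein genes and 1 with a pseudocount of 5. The medians of the members and both subunits kept their direction under every other alternative run, between 0.18 and 0.26. For named genes and lists, 1 of 492 values left its counting interval under settings other than total counts. It was the median of the macrophage markers, at 0.25 with a minimum mean of 50. Of the 492, 78 only redrew the interval on counts as deposited, so their values could not leave it. The other scalings moved all ratios by a small, nearly constant amount, and the interval of a list is that of its middle genes. The count is therefore little evidence of stability. The counts of intervals beyond 0, and the values with the 2 annotated pseudogenes kept as members (0.24 for the median and for the sum), were alternatives chosen after seeing the data. Low counts leave Rpl39l and Mycn with wide intervals. Rpl39 and Rpl10l had too few counts for a ratio, and the cause was not tested.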
